A study of Mus musculus with 12 samples.

Results

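The genes described here are the protein-coding genes for mitochondrial ribosomal proteins. They were chosen by name as every protein-coding row of the count table whose symbol begins with Mrpl or Mrps followed by a digit, which gave 78 of 55421 gene rows, 49 of them Mrpl and 29 Mrps. RNA was sequenced from MOC2, a mouse oral squamous carcinoma line, in a study of the extracellular vesicles (EVs) that senescent tumour cells release. The EV-proficient groups were the derivative MOC2-25 and the EV-deficient groups were the derivative MOC2-27, in which a genetic block stops vesicle release (which gene was blocked is not stated in the labels). Both derivatives were sequenced as controls, labelled DMSO, and as senescent cells made with the microtubule drug paclitaxel at 600 nM over 48 h. With 3 libraries in each of 4 groups, there were 12 libraries. Each EV label stands for a single derivative line, so vesicle release and any other difference between these lines cannot be told apart. Nothing in the labels says that replicates came from separate cultures, so the p-values measure only the spread between these libraries, which may be technical.

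The mitochondrial ribosome translates the few messages of the mitochondrial genome, all of which encode subunits of the respiratory chain and the ATP synthase. Its ribosomal RNAs are made inside the organelle, whereas its proteins are encoded in the nucleus, made in the cytosol and imported. The large subunit joins amino acids and carries the exit tunnel, docked to the inner membrane; the small subunit binds and decodes the message. Names beginning Mrpl mark the large and Mrps the small subunit, with known exceptions: the proteins of Mrps30 and Mrps18a sit in the large subunit, and that of Mrps36 belongs to the 2-oxoglutarate dehydrogenase complex.

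Promoter sequence from RefSeq (build GRCm38.p6, 250 bases before to 50 after each start) was found for 69 of the 78 members, in 75 entries. Short motifs, 5 in all, were searched on both strands: CCGGAAGT, bound by ETS factors such as GABP; AAGATGGCG, bound by YY1; the palindromic motif of NRF1; the E-box CACGTG; and the GC box GGGCGG. None of these letter strings contains another, though matches may overlap in a promoter. The ETS letters were in 16.0% of member promoters, 7.05% of the promoters of genes tested and 3.89% of all 32851 promoters. The YY1 letters were in 10.7%, 2.56% and 1.40% of these, and the NRF1 letters in 3 of the 75 member promoters, 1.75% and 0.971%. These shares are over entries, and a gene with several starts counts more than once. The E-box was in 7 entries from 5 members, of which 3 entries overlap and belong to Mrpl2 (9.33% of entries against 9.19% for genes tested). The GC box was in 39 entries of 34 members (52.0% against 58.9%). A match is a description of letters, not a site that was shown to be bound.

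Windows of 30 bases around some of these matches are shown because, of the motifs with a higher share among members than among tested genes, ETS and YY1 had the most matches, and because the genes shown include 4 of the members that fell most under paclitaxel and 1 that rose. Capitals mark the motif, each window is written 5′ to 3′ along the strand of its gene, and the position is that of the first capital relative to the RefSeq start. The first 4 hold the ETS letters or their reverse complement. Of 12 ETS matches in member promoters, 8 began within 60 bases before the start.
Mrpl18 (chr17:12916312-12916341, minus strand, position -240): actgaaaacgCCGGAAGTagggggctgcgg
Mrps26 (chr2:130563731-130563760, plus strand, position -15): gctccgcggccACTTCCGGgccgggcgcag
Mrpl51 (chr6:125192099-125192128, plus strand, position -90): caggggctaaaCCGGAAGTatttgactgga
Mrpl43 (chr19:45006436-45006465, minus strand, position -12): caaccccggaaCCGGAAGTcaccggttagt

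The next 4 hold the YY1 letters or, in Mrps11, their reverse complement. Of 8 YY1 matches, 6 ran along the gene's own strand just after the start, with the first base at positions 12 to 37, as in Mrps27, Mrps18a and Mrpl37 here. Mrps27 also had an ETS match.
Mrps11 (chr7:78783013-78783042, plus strand, position -108): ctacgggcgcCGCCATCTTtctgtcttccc
Mrps27 (chr13:99344790-99344819, plus strand, position 15): ggtgcgctccAAGATGGCGgctcccatggt
Mrps18a (chr17:46111005-46111034, plus strand, position 12): ggtgcgttccAAGATGGCGgccctcagggc
Mrpl37 (chr4:107066821-107066850, minus strand, position 27): tgcacgggcaAAGATGGCGgcgtccaggta

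Library totals ran from 23263472 to 62955757 counts, and 18108 genes passed the low-count filter. Of the epithelial markers, Krt8, Krt18, Cdh1 and Epcam were expressed in every group, whereas Krt5 and Trp63, which mark basal squamous cells, had group means of at most 0.142 CPM (each count relative to its library's total, with totals scaled by the trimmed mean of M values). Krt14, also a basal marker, passed the low-count filter, so basal markers were not all missing. Its changes are given with the cell type markers below. A row that the authors added under the name dngfr had mean levels under DMSO of 8.99 CPM (EV-proficient) and 2.15 CPM (EV-deficient), but 3.24 and 10.9 CPM in that order under paclitaxel, so its order by EV label was opposite in the 2 treatments. The other added row, gfp, had 0 counts in all 12 libraries. The labels were used as deposited; whether the derivative labels of one treatment were exchanged cannot be told from these counts, and an exchange would change the meaning of the within-label, between-label and interaction values below. The paclitaxel effect averaged over both labels has the same value whichever derivative a label belongs to within a treatment, and it is given first.

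Of the 78 members, 77 were tested, and 75 of those averaged at least 5 CPM in every group. Mrpl53 had 0 counts in every library, which allows up to 0.0477 to 0.129 CPM depending on the library (3 counts of the total); 88.0% of its exonic bases overlap Gm42688 on the same strand in the GENCODE M21 annotation. Mrps34 was nearly as low, between 0.195 and 1.90 CPM, and its exons overlap Nme3 on the same strand over 37.0% and Mapk8ip3 on the opposite strand over 63.4% of their bases. Whether strand was used in counting was not stated, so reads of Mrps25, Mrpl43, Mrps18b and Mrpl24 could be shared with opposite-strand genes. Their exons overlap such genes over 69.8%, 33.4%, 30.5% and 26.3% of their bases, and some other members overlap as well. Exons of Mrps18c and Mrps24 overlap same-strand genes over 23.2% and 15.4% of their bases. Per kilobase of principal transcript, the highest levels averaged over all libraries were those of Mrpl12 (123 RPKM), Mrpl42 (101 RPKM) and Mrpl38 (85.2 RPKM). The lowest tested were Mrps34 (0.921 RPKM), Mrps25 (5.13 RPKM) and Mrpl48 (6.03 RPKM), against a median of 24.8 RPKM.

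Under paclitaxel the messages of the mitochondrial ribosome fell together. In the effect averaged over both EV labels, 69 of 77 members were lower and 2 were higher at an adjusted p under 0.05 (edgeR's quasi-likelihood test), where 31.3% of all genes tested were lower and 37.1% higher, 68.4% in either direction. The median member was at 0.696 of its DMSO level, a log2 fold change of -0.52, whereas the median of all genes tested was 0.07. The quartiles of the members were -0.70 and -0.23. With upper-quartile scaling, which moves the median of all genes by 0.12, the counts were 56 lower and 3 higher and the members' median was -0.40. In 50 members every paclitaxel library was below every DMSO library, in 0 every one was above; over all genes tested these shares were 18.5% and 18.3%. At least a 2-fold fall was found in 11 members, and in 5.03% of genes tested.

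**Figure D1:**
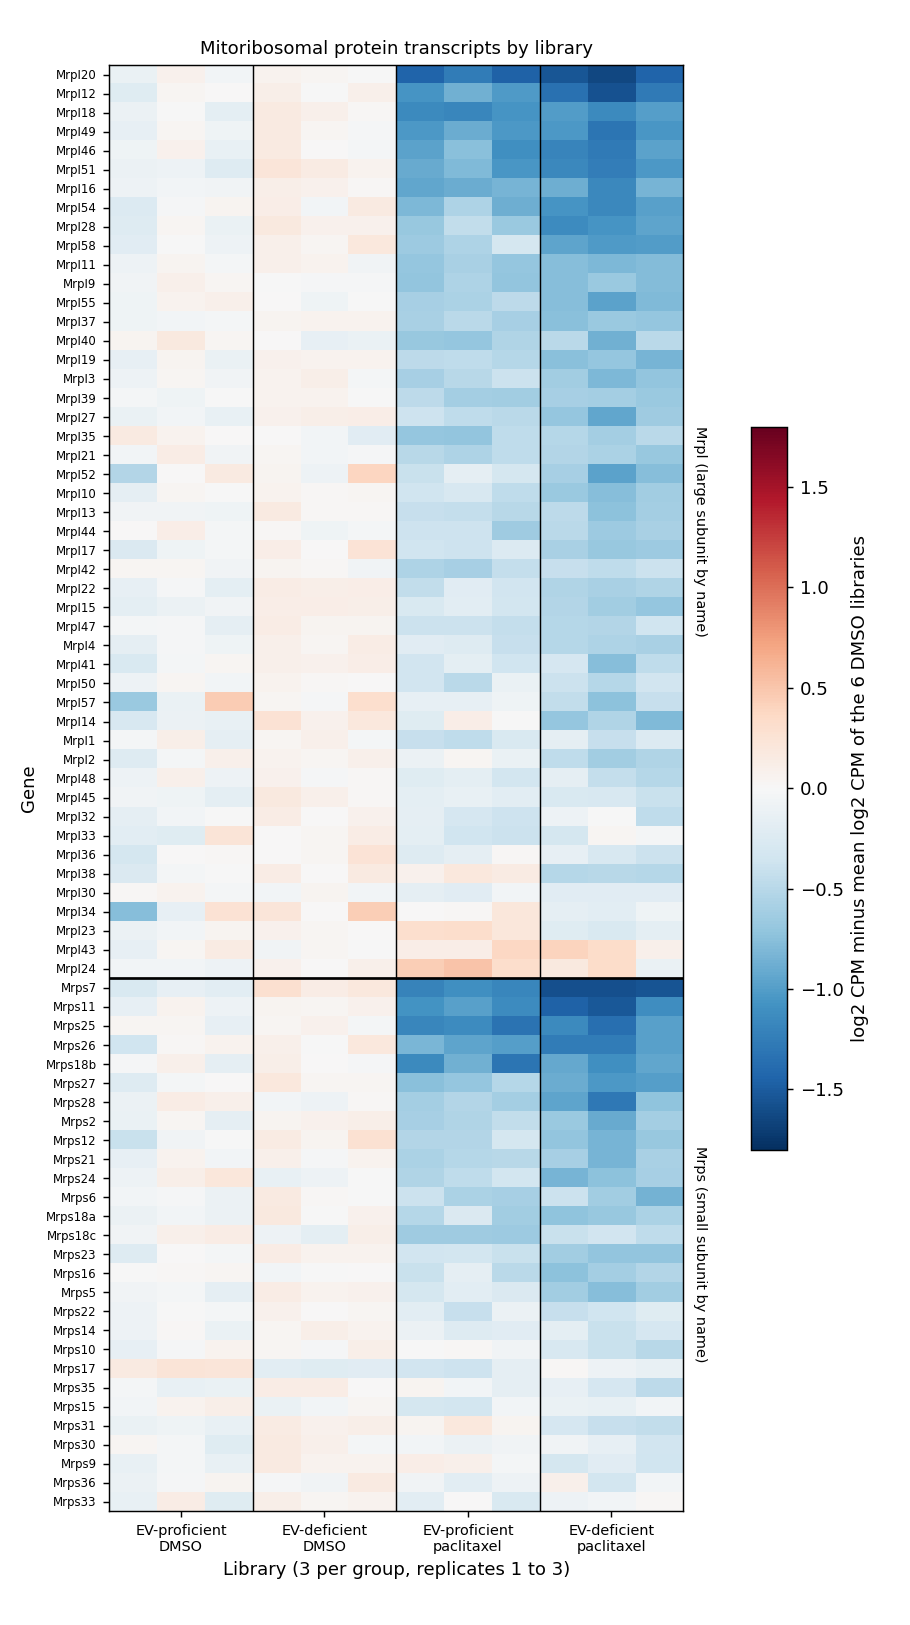
Log2 CPM of 76 members (rows; Mrpl53, at 0, and Mrps34, near the floor, are left out) in each of 12 libraries (columns), less the gene's mean over the 6 DMSO libraries; Mrpl above the thick line and Mrps below it, each sorted by the averaged paclitaxel effect. Blue, lower values, fills most of the 6 paclitaxel columns and is darkest at the top of both blocks, from Mrpl20 and Mrps7 downwards; Mrpl24 and Mrpl43 are the red rows at the foot of the upper block.

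The largest fall was that of Mrpl20, which encodes a large-subunit protein conserved from bacteria (ENSMUSG00000029066, chr4:155802878-155809975, plus strand, GRCm38). Its CPM was 67.7, 77.6 and 71.2 in the EV-proficient DMSO libraries and 76.8, 75.6 and 73.2 in the EV-deficient ones. After paclitaxel it was 27.0, 30.8 and 26.9 in EV-proficient and 25.3, 23.6 and 27.2 in EV-deficient cells. All 6 paclitaxel libraries lay far below all 6 DMSO libraries, and the averaged log2 fold change was -1.46 ± 0.05 (SE; edgeR adjusted p = 2.47e-15).

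Mrps7, whose protein helps form the head of the small subunit where the message passes (ENSMUSG00000046756, chr11:115603925-115608036, plus strand), stood under DMSO at 125, 136 and 133 CPM in EV-proficient libraries and at 184, 166 and 172 CPM in EV-deficient ones. Paclitaxel libraries held 65.5, 69.9 and 66.9 CPM with the EV-proficient label and 50.6, 50.5 and 51.5 CPM with the EV-deficient label. The groups did not overlap in any pair, and the order of the EV labels was reversed between the treatments. The averaged log2 fold change was -1.37 ± 0.04 (edgeR adjusted p = 4.10e-16).

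Mrpl12, the stalk protein that recruits translation factors and the member with the highest level per kilobase (ENSMUSG00000039640, chr11:120484613-120489065, plus strand), had under DMSO 192, 228 and 225 CPM (EV-proficient) and 239, 221 and 237 CPM (EV-deficient). With paclitaxel it had 107, 122 and 109.9 CPM (EV-proficient) and 87.5, 75.5 and 92.7 CPM (EV-deficient). The DMSO groups overlapped, the paclitaxel groups did not, and the averaged log2 fold change was -1.19 ± 0.06 (edgeR adjusted p = 8.28e-14). Mrps11, a protein of the small subunit's platform, fell by 1.21 ± 0.07 on the log2 scale, from group means of 25.0 ± 1.9 and 27.0 ± 0.33 CPM (SD, n = 3 libraries) to 12.4 ± 0.68 and 10.1 ± 1.6 CPM (EV-proficient and EV-deficient respectively). Mrpl46, a large-subunit protein whose gene starts opposite Mrps11 on chromosome 7, fell by 1.03 ± 0.07. Its CPM in the 6 DMSO libraries was between 37.1 and 45.3, and in the 6 paclitaxel libraries between 16.9 and 24.1.

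**Figure D2:**
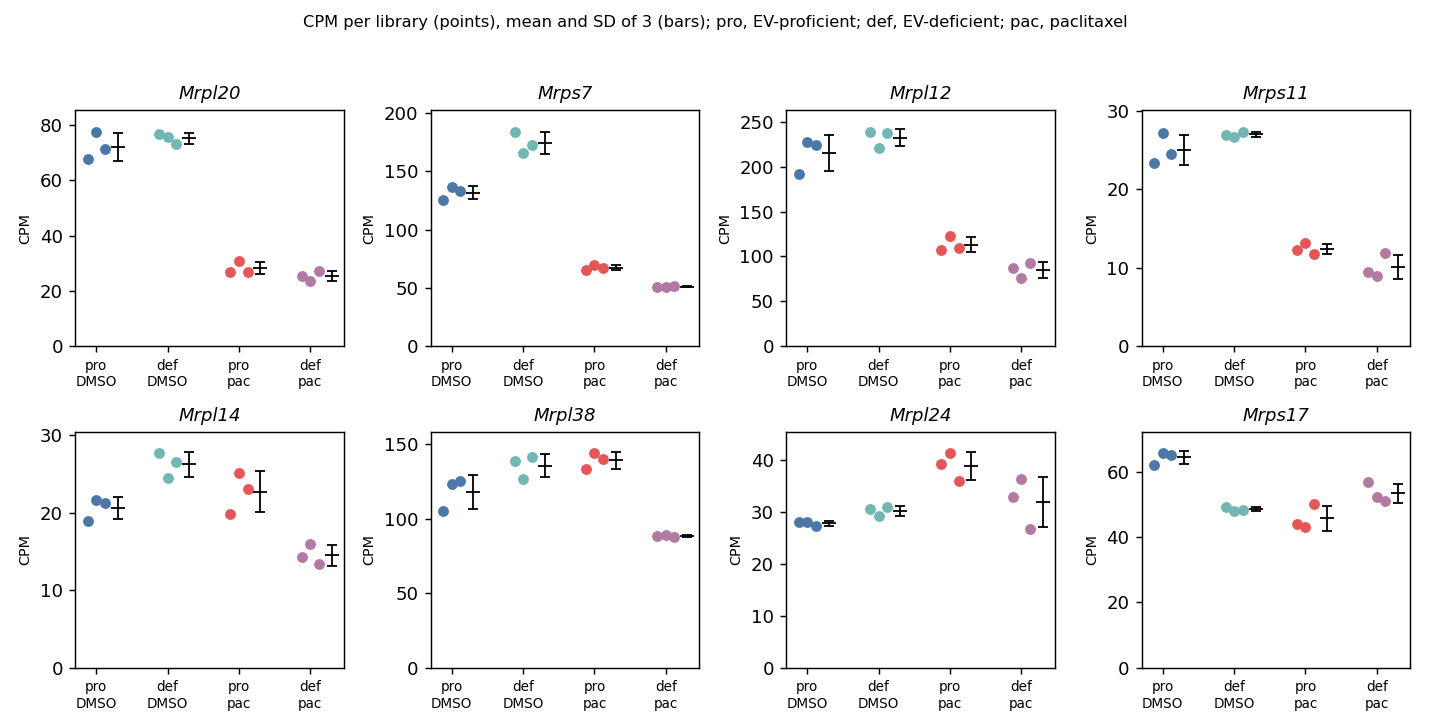
CPM of 8 members (panels, each from 0) in every library (points) with the mean and SD of each group of 3 (bars). Mrpl20, Mrps7, Mrpl12 and Mrps11 are low in both paclitaxel groups, Mrpl14 and Mrpl38 are low in the EV-deficient paclitaxel group alone, Mrpl24 is highest in the EV-proficient paclitaxel group, and Mrps17 is highest in EV-proficient DMSO.

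Members with a known role at functional centres of the ribosome fell by differing amounts. At the small subunit's decoding side, Mrps12, the counterpart of the bacterial protein at the decoding centre, had an averaged log2 fold change of -0.61 ± 0.07, Mrps2 of -0.63 ± 0.06 and Mrps5 of -0.47 ± 0.05. Mrps27, an RNA-binding pentatricopeptide repeat protein, stood at -0.82 ± 0.06, and Mrps22, a small-subunit protein found in mitochondria only, at -0.28 ± 0.06. On the large subunit, Mrpl3 near the peptidyl transferase centre stood at -0.60 ± 0.05 and Mrpl11 of the stalk base at -0.72 ± 0.05. Mrpl58, a peptidyl-tRNA hydrolase built into the large subunit that frees stalled ribosomes, stood at -0.75 ± 0.06. Mrpl44, with a ribonuclease III-like fold, stood at -0.51 ± 0.06, and Mrpl41 at -0.39 ± 0.08. Mrpl45, which contacts the inner membrane at the tunnel exit, stood at -0.25 ± 0.04, and Mrpl32, which a membrane protease matures, at -0.22 ± 0.07. All of these passed the edgeR threshold, with adjusted p at most 0.00697; with upper-quartile scaling Mrpl32 did not.

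The Mrps18 paralogs, 3 genes of one bacterial counterpart, all fell. Mrps18b had the most negative value of them, -1.04 ± 0.07, from 29.2 ± 2.6 and 30.5 ± 1.5 CPM under DMSO to 13.9 ± 2.3 and 15.0 ± 1.1 CPM under paclitaxel (EV-proficient, EV-deficient; SD, n = 3). Mrps18a, whose protein is in the large subunit, stood at -0.55 ± 0.06, and Mrps18c, the least abundant of these, at -0.53 ± 0.09. All of them passed the edgeR threshold, with adjusted p at most 2.10e-05.

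By this test 8 members were not lower. Mrpl24, a protein at the large subunit's tunnel exit (ENSMUSG00000019710), rose: it had 28.2, 28.1 and 27.3 CPM in the EV-proficient DMSO libraries, 30.5, 29.2 and 30.9 CPM in the EV-deficient ones, then 39.3, 41.4 and 36.1 CPM and 32.9, 36.3 and 26.8 CPM with paclitaxel. The EV-proficient groups were clearly apart, while the EV-deficient groups overlapped because of the library with 26.8 CPM. Its averaged log2 fold change was 0.28 ± 0.06 (edgeR adjusted p = 0.000562). Mrpl43 rose by 0.24 ± 0.08 (edgeR adjusted p = 0.00932), from 11.6 to 14.3 CPM over the DMSO libraries to 13.7 to 17.0 CPM over the paclitaxel libraries, and it did not pass without EV-proficient paclitaxel replicate 3 or without EV-deficient paclitaxel replicate 1. Not called were Mrpl23 (0.03 ± 0.05), Mrpl33 (-0.21 ± 0.09), Mrpl34 (-0.07 ± 0.11), Mrps33 (-0.09 ± 0.07), Mrps34 (0.29 ± 0.48) and Mrps36 (-0.10 ± 0.07). Mrps36, the member whose protein is not part of the ribosome, had group means between 17.0 and 18.8 CPM. Mrps30 passed narrowly, at -0.13 ± 0.06 (edgeR adjusted p = 0.0488), and lost its call in 8 of the alternatives run.

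Both subunits fell. Of 48 tested Mrpl genes, 43 were lower and 2 higher, with a median log2 fold change of -0.52; of 29 Mrps genes, 26 were lower and 0 higher, also with a median of -0.52. The 26 small-subunit genes by structure were 24 lower, with a median of -0.53, and the 50 large-subunit genes 45 lower, with a median of -0.52. The summed CPM of all members was 3610 to 3957 in EV-proficient and 4040 to 4217 in EV-deficient cells under DMSO, and 2865 to 2972 and 2423 to 2568 under paclitaxel. All 4 groups were apart on this sum, with EV-deficient DMSO highest and EV-deficient paclitaxel lowest. As a share of the unscaled library totals, members held 0.334% to 0.377% under DMSO and 0.274% to 0.312% under paclitaxel. The ratio of Mrpl to Mrps summed CPM was 2.17 to 2.22 in the DMSO libraries and 2.12 to 2.18 in the paclitaxel libraries, a log2 difference of -0.03 against a standard deviation of 0.012 within groups. With Mrps30 and Mrps18a counted as large and Mrps36 left out, the ratio lay between 2.47 and 2.54 in all 12 libraries, and the log2 difference was 0.00116.

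**Figure D3:**
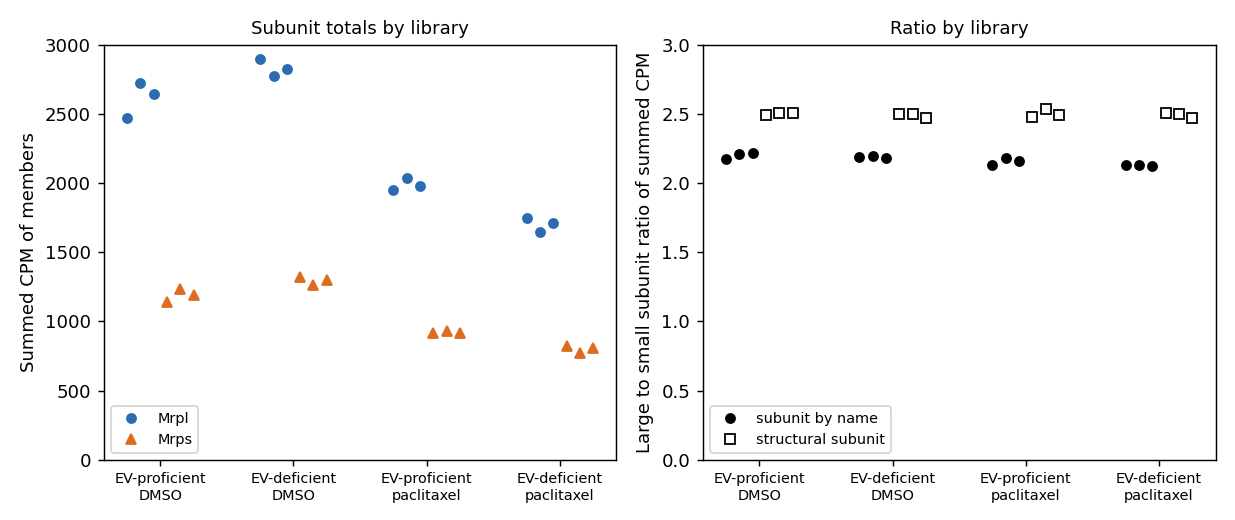
Left, summed CPM of the Mrpl and Mrps genes in each library; right, the ratio of large to small subunit sums in each library, by gene name (filled) and by structure (open), both axes from 0. The sums step down from DMSO to paclitaxel in both subunits, while the ratio by structure stays between 2.47 and 2.54.

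Within the EV-proficient label, 52 members were lower and 5 higher after paclitaxel by edgeR's test (background 27.1% lower, 31.1% higher, 58.2% either), with a median of -0.35 against 0.05 for all genes tested. Within the EV-deficient label, 69 were lower and 1 higher (background 30.5% and 32.4%, 62.9% either), with a median of -0.67 against 0.07; 50 members (64.9%) were lower in both, against 18.5% of genes tested. All paclitaxel libraries were below all DMSO libraries of the label in 52 members of EV-proficient cells (29.2% of genes tested) and above them in 4 (33.1%); in EV-deficient cells these were 70 members (33.5%) and 2 (35.2%). In EV-proficient cells the higher count was 2 without EV-proficient paclitaxel replicate 2, and 3 without EV-proficient DMSO replicate 1 or any other single paclitaxel library. The 1 member higher in EV-deficient cells, Mrpl43, was not called when any one EV-deficient DMSO library, or EV-deficient paclitaxel replicate 1 or 2, was left out. Mrpl20 fell by 1.35 ± 0.08 and 1.57 ± 0.08 in the EV-proficient and EV-deficient label, Mrps25 by 1.18 ± 0.09 in each, and Mrps7 by 0.96 ± 0.06 and 1.77 ± 0.06. These comparisons share no library, and across the 77 members their log2 fold changes had a Pearson correlation of 0.72, given as a description since members share each comparison's 6 libraries. Across members, the mean CPM under DMSO and the log2 fold change averaged over both labels had a Spearman rho of -0.33. The DMSO level enters both values, so a negative rho can arise from this alone, and it is given as a description.

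**Figure D4:**
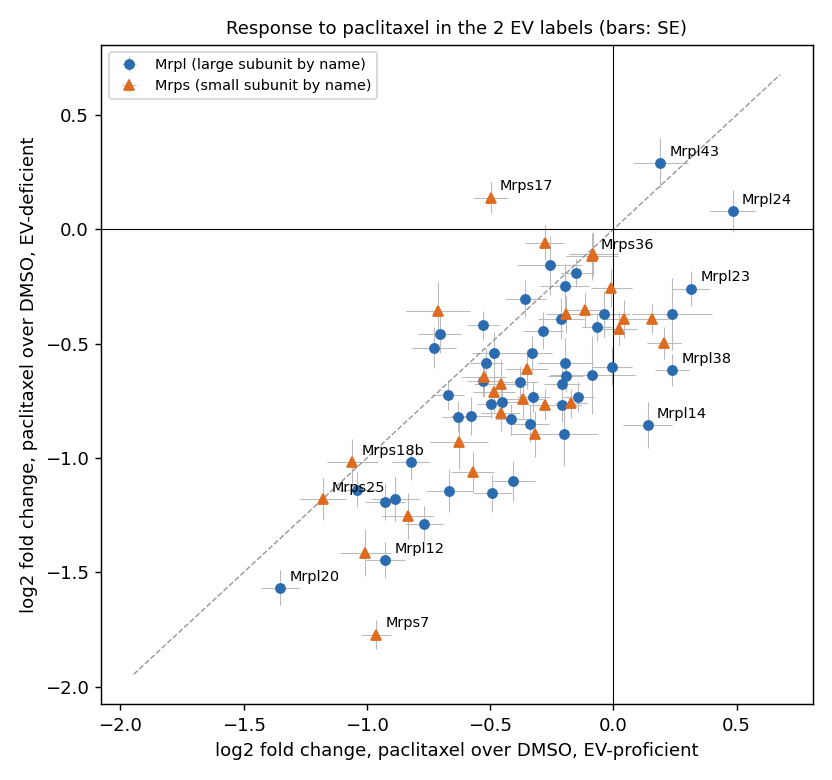
Log2 fold change of paclitaxel over DMSO in EV-proficient (horizontal) and EV-deficient cells (vertical) for 76 members (Mrps34 and Mrpl53 left out), with standard errors; the dashed line marks equal effects. Most points lie left of and below 0 and under the dashed line; Mrps17 lies far above it, and Mrpl24, Mrpl23, Mrpl38 and Mrpl14 to the right of 0.

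The response differed between the labels in 37 members by the edgeR interaction test: the EV-deficient effect was the lower in 36 and the higher in 1, where 23.8% and 16.9% of genes tested were called in these directions, 40.7% in all. The counts were 27 and 6 with upper-quartile scaling, and the higher count was 3 without EV-proficient paclitaxel replicate 3 and 4 without EV-deficient paclitaxel replicate 2. By sign alone, 67 of 77 members had the lower value in EV-deficient cells, against 52.3% of genes tested. The median interaction was -0.30 for members and -0.04 for all genes tested.

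Mrpl14, a protein at the subunit interface, had the most negative interaction (-0.99 ± 0.14, edgeR adjusted p = 7.45e-06). Its CPM was 18.9, 21.6 and 21.2 in EV-proficient DMSO, 27.7, 24.4 and 26.6 in EV-deficient DMSO, 19.9, 25.1 and 23.1 in EV-proficient paclitaxel, and 14.3, 16.0 and 13.3 in EV-deficient paclitaxel. The EV-deficient paclitaxel libraries were below all others, and the EV-proficient groups overlapped. Mrpl38, of the large subunit's central protuberance, rose by 0.24 ± 0.07 in EV-proficient cells (edgeR adjusted p = 0.00493) and fell by 0.61 ± 0.07 in EV-deficient cells (edgeR adjusted p = 8.10e-08). Its CPM in EV-proficient cells was 105, 123 and 125 under DMSO and 133, 144 and 140.0 with paclitaxel; in EV-deficient cells it was 139, 127 and 141 and then 88.4, 89.2 and 88.0. The rise was not called without EV-proficient DMSO replicate 1 or EV-proficient paclitaxel replicate 2. Mrpl23, Mrps31 and Mrps9 were likewise higher in EV-proficient cells (0.32, 0.21 and 0.16) and lower in EV-deficient cells (-0.26, -0.50 and -0.39), so 4 members (5.19%) were called higher in EV-proficient and lower in EV-deficient cells, a share near the 3.93% of all genes tested.

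Mrps17, a protein of the small subunit's body (ENSMUSG00000034211, chr5:129715497-129722556, plus strand), was the single member called with a positive interaction (0.64 ± 0.10, edgeR adjusted p = 2.01e-05). It had 62.2, 65.7 and 65.3 CPM in EV-proficient DMSO, 49.1, 47.9 and 48.4 in EV-deficient DMSO, 43.9, 43.2 and 50.01 in EV-proficient paclitaxel, and 56.7, 52.4 and 51.0 in EV-deficient paclitaxel. It was highest in EV-proficient DMSO libraries, where most members were not. It fell by 0.50 ± 0.07 in EV-proficient cells (edgeR adjusted p = 2.64e-06), and in EV-deficient cells it stood at 0.14 ± 0.07 (edgeR adjusted p = 0.0859).

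Between the EV labels, the direction depended on the treatment. Under DMSO, EV-deficient cells had 11 members higher (14.3%) and 1 lower (1.30%) by edgeR's test (background 12.4% and 10.6%, 23% either). The higher share was near the background and the lower share was below it. The median was 0.12 against 0.04 for all genes. Leaving out single libraries took the higher count to between 2, without EV-deficient DMSO replicate 1, and 11. It was 4 without EV-proficient DMSO replicate 1, 5 without EV-deficient DMSO replicate 3, and 3 to 6 without any one paclitaxel library. Under paclitaxel, EV-deficient cells had 34 members lower and 1 higher (background 21.8% and 16%, 37.8% either), with a median of -0.21 against -0.00. These became 20 lower and 4 higher with upper-quartile scaling and 21 lower without EV-proficient paclitaxel replicate 2; the 1 higher member, Mrps17, was not called without EV-proficient paclitaxel replicate 1 or 2 or EV-deficient paclitaxel replicate 1. Markers moved with this comparison too. Under paclitaxel, fibroblast markers summed to 1.29 to 1.93 CPM in EV-proficient and 2.93 to 3.36 CPM in EV-deficient libraries, with 2 of 3 tested called higher in the latter. Epithelial markers summed to 3376 to 3701 CPM and 3019 to 3138 CPM, with 3 of 5 tested called lower and 1 higher in EV-deficient cells. Neither sum overlapped between the labels. Under DMSO the leukocyte sum was 6.61 to 7.38 CPM in EV-proficient and 8.33 to 9.56 CPM in EV-deficient libraries. The endothelial sum was 1.55 to 1.90 CPM and 1.23 to 1.51 CPM in that order, while the fibroblast and epithelial sums overlapped. Of 5 epithelial markers tested under DMSO, 2 were called higher and 1 lower in EV-deficient cells. The part of these markers in the members' results between labels was not tested.

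**Figure D5:**
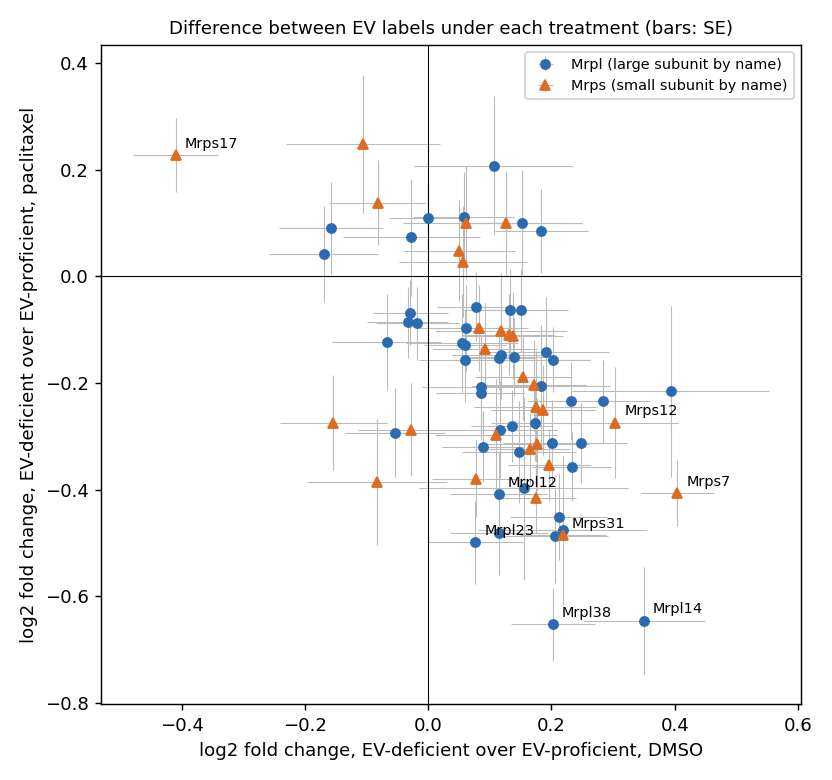
Log2 fold change of EV-deficient over EV-proficient cells under DMSO (horizontal) and under paclitaxel (vertical) for 76 members (Mrps34 and Mrpl53 left out), with standard errors. Most points are in the lower right part, higher under DMSO and lower under paclitaxel; Mrps17 is alone at the far upper left.

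By library, EV-deficient values were all above EV-proficient ones under DMSO in 34 members (24.8% of genes tested) and all below in 2 (18.5%); under paclitaxel they were all below in 38 (24.1%) and all above in 2 (19.9%). Mrps7 had the highest EV-deficient excess under DMSO (0.40 ± 0.06, edgeR adjusted p = 2.69e-05) and was as far below under paclitaxel (-0.41 ± 0.06, edgeR adjusted p = 2.29e-05). Mrpl14 went from 0.35 ± 0.10 to -0.65 ± 0.10, Mrpl38 from 0.20 ± 0.07 to -0.65 ± 0.07 and Mrps12 from 0.30 ± 0.10 to -0.27 ± 0.10. Mrps17 went the other way, from -0.41 ± 0.07 to 0.23 ± 0.07. The Mrps12 call under DMSO was lost in 11 alternatives, among them both other scalings and the omission of any one paclitaxel library, and that of Mrpl14 was lost without EV-proficient or EV-deficient DMSO replicate 1. Of the 11 members called under both treatments, 0 had the same sign; of the 2834 genes tested that were so called, 112 had the same sign, so the reversal was not particular to the members. By sign alone, 53 of 77 members were higher in EV-deficient cells under DMSO and lower under paclitaxel, against 36.2% of all genes tested; counting the reverse order too (30.8% of genes), signs were opposite in 59 members and in 67.0% of genes tested. Group means in the order EV-deficient DMSO, EV-proficient DMSO, EV-proficient paclitaxel, EV-deficient paclitaxel were found in 44 members (57.1%) and in 13.7% of genes tested. The dngfr row also changed order between the treatments, and its part in these results was not tested. Averaged over the treatments, 0 members were higher by edgeR's test (1 at an unadjusted p under 0.05; 0 adjusted by DESeq2 and by limma-voom) and 4 were lower, Mrpl38, Mrps24, Mrpl23 and Mrpl2, at -0.23 to -0.18 (background 3.41% and 6.2%, 9.6% either). The call of Mrps24 was lost in 6 alternatives, upper-quartile scaling among them, and that of Mrpl23 in 4. The lower count was 1 or 2 without EV-proficient DMSO replicate 2 or 3 or any one EV-deficient DMSO library. It was 8 or 9 without EV-proficient DMSO replicate 1, EV-proficient paclitaxel replicate 3 or EV-deficient paclitaxel replicate 3.

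The ribosomal proteins without an Mrp name fell too: of 5, 5 were lower in the averaged paclitaxel effect by edgeR's test, where 31.3% of all genes tested were lower and 37.1% higher. Ptcd3, a pentatricopeptide repeat protein of the small subunit, stood at -0.77 ± 0.06, Gadd45gip1, of the large subunit, at -0.66 ± 0.17, Aurkaip1 at -0.58 ± 0.05, Chchd1 at -0.35 ± 0.05 and Dap3, which binds GTP on the small subunit, at -0.14 ± 0.04. Dap3 did not pass with upper-quartile scaling. Of the mitochondrial ribosomal RNAs, 1 of 2 was lower in the averaged effect, mt-Rnr2 of the large subunit (-0.32 ± 0.06, edgeR adjusted p = 8.47e-05), and the EV labels differed. It had 243, 208 and 253 CPM in EV-proficient DMSO and 157, 128 and 118 in EV-proficient paclitaxel, but 250, 257 and 236 in EV-deficient DMSO and 297, 268 and 263 in EV-deficient paclitaxel. Its log2 fold change was -0.80 ± 0.09 in EV-proficient cells (edgeR adjusted p = 8.59e-08) and 0.16 ± 0.09 in EV-deficient cells (edgeR adjusted p = 0.128). The small-subunit RNA mt-Rnr1 stood at 0.06 ± 0.07 on average (edgeR adjusted p = 0.484), lower in EV-proficient cells (-0.37 ± 0.10) and higher in EV-deficient cells (0.48 ± 0.10). The libraries were made from polyadenylated RNA, so these counts need not follow the amount of ribosomal RNA.

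Factors that assemble and serve the ribosome fell in part. In the averaged paclitaxel effect 31.3% of all genes tested were lower and 37.1% higher, which is the background for the counts here. Of 28 assembly genes, 18 were lower and 4 higher, with a median of -0.29; the largest falls were those of Rcc1l (-1.13 ± 0.05), Mrm3, which methylates the large ribosomal RNA (-1.08 ± 0.07), and Trub2, a pseudouridine synthase family member (-0.83 ± 0.06). Of 15 tested translation factors, 10 were lower and 1 higher, with a median of -0.32. Tufm, the elongation factor that brings aminoacyl-tRNA to the ribosome, fell from 169 to 198 CPM over the DMSO libraries to 74.2 to 108 CPM over the paclitaxel libraries, a log2 fold change of -1.07 ± 0.05. Lrpprc, which stabilises mitochondrial messages, stood at -1.05 ± 0.05 and Gfm1, the translocase, at -0.70 ± 0.05. Of 17 mitochondrial aminoacyl-tRNA synthetases, 10 were lower and 3 higher, with a median of -0.21, led by Cars2 (-1.35 ± 0.07), Sars2 (-1.16 ± 0.09) and Tars2 (-0.92 ± 0.05). All the genes named passed edgeR's threshold, with adjusted p at most 8.93e-11.

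Genes upstream moved in both directions, in counts to be set beside the 31.3% of all genes tested that were lower and 37.1% that were higher. Of 9 genes for mitochondrial DNA transcription and maintenance, 4 were lower and 1 higher (Polg2, 0.34 ± 0.09), with Tfb2m at -0.47 ± 0.07, Polrmt, the mitochondrial RNA polymerase, at -0.46 ± 0.07 and the helicase Twnk at -0.43 ± 0.05. Of 10 nuclear regulators, 5 were lower and 3 higher by edgeR's test. Pprc1, a coactivator of nuclear genes for mitochondria, fell from between 309 and 326 CPM over the DMSO libraries to between 122 and 167 CPM, a log2 fold change of -1.14 ± 0.04 (edgeR adjusted p = 1.76e-15). Its relative Ppargc1a rose by 2.29 ± 0.19 (edgeR adjusted p = 7.59e-10) from a far lower level, 0.341 to 0.73 CPM, to 2.09 to 3.09 CPM. Ppargc1b stood at 0.78 ± 0.23 (edgeR adjusted p = 0.00474), with 1.97 ± 0.34 in EV-proficient and -0.41 ± 0.31 in EV-deficient cells. Nrf1, which binds many promoters of mitochondrial genes, stood at -0.50 ± 0.05, Gabpa at -0.17 ± 0.05 and Yy1 at 0.05 ± 0.04, the last not called.

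The cytosolic ribosomal protein genes and the nuclear-encoded respiratory chain genes are given for comparison, with no test of the difference between lists. Of 78 cytosolic ribosomal protein genes tested, 52 were lower and 5 higher in the averaged effect (background 31.3% and 37.1%), with a median of -0.19. Of the same 78, 9 were lower in every paclitaxel than in every DMSO library, a share below the 18.5% of all genes tested. In EV-proficient cells 27 of them were higher and 14 lower (background 31.1% and 27.1%), with a median of 0.08. In EV-deficient cells 1 was higher and 67 lower (background 32.4% and 30.5%), with a median of -0.49. Of 80 respiratory chain genes, 54 were lower and 7 higher, with a median of -0.29. By the interaction test 41 of these 80 were lower and 3 higher (median -0.30), and 70 of the 78 cytosolic genes were lower and 1 higher (median -0.55). The background there was 23.8% and 16.9%. Between the EV labels under paclitaxel, 37 of 80 and 70 of 78 were lower in EV-deficient cells (background 21.8%). The lower response in EV-deficient cells was thus not particular to the members. By sign alone, 71 of 78 cytosolic ribosomal protein genes were higher in EV-deficient cells under DMSO and lower under paclitaxel, against 36.2% of all genes tested.

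Among markers of other cell types, fibroblast markers summed to 0.622 to 1.21 CPM in the DMSO and 1.29 to 3.36 CPM in the paclitaxel libraries, with 2 of 3 tested called higher (37.1% of all genes tested were higher and 31.3% lower in the averaged effect). Endothelial markers summed to 1.23 to 1.90 CPM and 1.98 to 3.35 CPM, with 1 of 2 called higher; neither sum overlapped between the treatments. The leukocyte sum was 6.61 to 9.56 CPM under DMSO and 22.4 to 39.9 CPM under paclitaxel, nearly all of it Cd68, a lysosomal protein gene; Cd3e, which defines T cells, had group means of at most 0.0146 CPM. Of 5 epithelial markers tested, 4 were lower with paclitaxel in the averaged effect by edgeR's test, from -1.55 ± 0.05 for Krt14 to -0.39 ± 0.04 for Cdh1, and Epcam was higher, at 0.64 ± 0.06. The Krt14 value averages unlike labels: its log2 fold change with paclitaxel was -0.00 ± 0.07 in EV-proficient and -3.09 ± 0.07 in EV-deficient cells, with an interaction of -3.09 ± 0.10. The part of these markers in the members' results was not tested. In these bulk samples, fewer cells of a type and less RNA per cell cannot be told apart, and CPM is relative to each library's total.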

How the data were processed

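Libraries were stranded and made from polyadenylated RNA, per the labels' protocols. What the authors deposited is a single table of raw, whole-number counts by gene; STAR 2.5.0a and the build GRCm38 are named in the submitters' processing notes, and the counting program and its use of strand were not given in the sources used here. Columns were matched to samples by the sample descriptions; 0 columns belonged to other samples. The 2 added rows were left out of library sizes and tests.

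The fit used edgeR 4.0.16 (R 4.3.3): filterByExpr (minimum count 10), trimmed mean of M values (factors 0.890 to 1.15), and a quasi-likelihood fit of 4 group means on the 12 libraries (common dispersion 0.00956). P-values were adjusted by Benjamini-Hochberg over the 18108 genes tested, with a threshold of 0.05. A standard error is the absolute log2 fold change over the root of its F statistic. RPKM used the length of the principal transcript in GENCODE M21 (GRCm38). Replicate pairs differed by more than sampling noise (chi-square per degree of freedom 4.20 to 27.8). Floors cover counting error only, whereas the standard errors come from the fit and include the spread between libraries. The fits were first tested on simulated counts.

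The members and lists were chosen with earlier results of these data known. The genes named are the 3 highest and 3 lowest called members of each comparison (with groups that did not overlap, except for averages and the interaction); 18 fixed members; the mitochondrial ribosomal proteins without an Mrp name; the 3 highest and lowest by RPKM; and at most 3 genes per further list. Mrpl2, Mrpl18, Mrpl33, Mrpl34, Mrpl37, Mrpl46, Mrpl51, Mrpl52, Mrpl53, Mrpl57, Mrps9, Mrps26, Mrps31, Mrps33, mt-Rnr1, Polg2, Nrf1, Gabpa, Yy1, the cell type markers and the neighbouring genes were named after their values were seen. Alternatives were DESeq2 1.42.0, limma-voom (limma 3.58.1), upper-quartile and median-of-ratios scaling, testing every gene with a count, a filter of 1 CPM in 3 libraries, a replicate block, fits to the compared groups alone, and leaving out each library.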

Additional observations from a re-analysis of the deposited data

Results flagged for a closer look

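The paclitaxel effect differed between the EV labels, by edgeR's interaction test with adjusted p at most 0.0373, in 30 of the 53 genes that the rule for named genes selects, where 40.7% of all genes tested were called; part of these genes were selected by their rank in this or the within-label comparisons. Negative values mean a lower paclitaxel effect in EV-deficient cells. Among large-subunit members the log2 interaction was -0.99 for Mrpl14, -0.85 for Mrpl38, -0.69 for Mrpl58, -0.58 for Mrpl23, -0.52 for Mrpl12, -0.40 for Mrpl24, -0.36 for Mrpl45 and -0.30 for Mrpl3. Among Mrps members it was -0.81 for Mrps7, -0.59 for Mrps5, -0.58 for Mrps12, -0.49 for Mrps27, -0.41 for Mrps11, -0.38 for Mrps18a and -0.34 for Mrps2, against 0.64 for Mrps17. Among members named outside that rule it was called at -0.70 for Mrps31, -0.69 for Mrpl52, -0.61 for Mrpl34, -0.59 for Mrpl2, -0.55 for Mrps9, -0.52 for Mrpl51, -0.42 for Mrps26 and -0.27 for Mrpl37.

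Of the ribosomal proteins without an Mrp name, Gadd45gip1 had an interaction of -0.92 and Aurkaip1 of -0.63. Among factors that serve the ribosome it was -0.66 for Sars2, -0.59 for Trub2, -0.53 for Tars2, -0.50 for Mrm3, -0.44 for Tufm, -0.29 for Lrpprc and 0.53 for Rcc1l. The mitochondrial RNA mt-Rnr2 had 0.96, Polrmt -0.81, Twnk -0.99, Pprc1 -0.36 and Ppargc1b -2.37.

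The dngfr row, which no comparison used, held signal in all 4 groups: 8.99 CPM in EV-proficient DMSO, 2.15 in EV-deficient DMSO, 3.24 in EV-proficient paclitaxel and 10.9 in EV-deficient paclitaxel.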

How the results depend on the processing

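With upper-quartile scaling the counts of members were as follows: EV-deficient paclitaxel effect 3 higher, EV labels under paclitaxel 4 higher and 20 lower, interaction 6 higher, EV labels averaged 2 lower; Mrps36 in the averaged paclitaxel effect turned to 0.0201 (log2). It moved the median of all genes by 0.12 (averaged paclitaxel effect and interaction) and 0.18 (EV-deficient effect). Without a filter on low counts, EV-deficient cells had 18 members higher under DMSO, 0 higher under paclitaxel and 0 higher for the paclitaxel effect; with 1 CPM in 3 libraries the paclitaxel effect in EV-deficient cells had 2 members higher and the interaction 2 higher. Fitting only the 2 groups under DMSO gave 3 lower. The large to small ratio by structure changed sign, to 0.00116. The cause was not tested.

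Leaving out each library in turn gave 1 to 3 members higher and 67 to 70 lower for the averaged paclitaxel effect, 2 to 5 and 45 to 57 in EV-proficient, 0 to 2 and 66 to 69 in EV-deficient cells, 2 to 11 and 1 to 2 between labels under DMSO, 0 to 2 and 21 to 37 under paclitaxel, 1 to 4 and 26 to 39 for the interaction, and 0 and 1 to 9 for the averaged label effect. The ratio by name stayed between -0.04 and -0.03. For the genes named and the members' medians, 1417 alternative values kept their direction and side of the threshold, 47 were no longer called, 1 became called and 1 changed sign.

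Replicate numbers did not pair the samples: deviations from group means correlated between -0.08 and 0.10 for the same number and between -0.11 and 0.09 for different numbers. With the replicate block the counts higher and lower were 2 and 69 (averaged paclitaxel effect), 5 and 53 (EV-proficient), 1 and 69 (EV-deficient), 13 and 1 (labels under DMSO), 1 and 37 (under paclitaxel), 1 and 38 (interaction) and 0 and 3 (labels averaged).

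Values are least precise for Mrps34, with at most 1.90 CPM; Mrpl53 had 0 counts. Exons of both overlap other genes, whose part in these low counts was not tested.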

Other observations

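Many members start close to another gene on the opposite strand. In the GENCODE M21 annotation, 25 of 78 members (32.1%) had a protein-coding start on the opposite strand within 500 bases, against 12.4% of 14389 protein-coding genes tested. In 23 pairs the partner was tested and was not itself a member; by edgeR's test of the averaged paclitaxel effect 15 partners were lower and 6 higher (31.3% and 37.1% of all genes tested were), with a median log2 fold change of -0.41. Mrps12 and Sars2, the mitochondrial seryl-tRNA synthetase, stood at -0.61 ± 0.07 and -1.16 ± 0.09. Mrps18b and Ppp1r10, a regulatory subunit of protein phosphatase 1, stood at -1.04 ± 0.07 and -0.96 ± 0.04. Mrpl49 and Fau, a cytosolic ribosomal protein gene, stood at -1.06 ± 0.06 and -0.57 ± 0.06. Other pairs parted: Mrpl2 stood at -0.30 ± 0.06 and Klc4, a kinesin light chain gene, at 1.39 ± 0.09, and Mrpl44 at -0.51 ± 0.06 with Wdfy1 at 0.79 ± 0.05. Mrpl46 and Mrps11, which start opposite each other, both fell.

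Most members were tightly measured. The median coefficient of variation among the 3 libraries of a group was between 4.17% and 6.67% over the 4 groups, and 4 members exceeded 20% in some group: Mrps34, Mrpl57, Mrpl34 and Mrpl52. Mrpl34 had 14.0, 21.6 and 28.7 CPM in EV-proficient DMSO replicates 1, 2 and 3, and Mrpl57 had 17.5, 25.7 and 38.2 CPM in the same libraries. Mrps34 was highest in replicate 3 of both DMSO groups, at 1.87 and 1.49 CPM against at most 0.335 CPM in the other 4 DMSO libraries.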
